A study of Caenorhabditis elegans with 2 samples.

Results

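The small nucleolar RNA (snoRNA) genes of Caenorhabditis elegans were examined for binding by the C2H2 zinc finger protein ZTF-6 in chromatin immunoprecipitation followed by sequencing (ChIP-seq). The set comprised every nuclear gene annotated as snoRNA in Ensembl WBcel235, 346 of 46890 nuclear genes. It was split by annotation into 150 genes inside an intron of a protein-coding gene on the same strand, here called intronic, in 130 host genes, and 196 genes outside such introns. A gene was scored as carrying a peak when the summit of a deposited peak lay within 500 bp of its annotated start. There was a single group of 2 biological replicates: whole young adults of 62 hours from strain RW12301, genotype st12301[ztf-6::TY1::EGFP::3xFLAG] I. A CRISPR insertion had placed the tag at the endogenous ztf-6 gene, and an antibody against GFP was used for the precipitation. Animals had been synchronised by bleaching and starvation at the first larval stage, and chromatin had been sonicated to 200 to 800 bp. The strain is one engineered line, all tissues were pooled, and no untagged or untreated group was analysed here, so the authors' control alignment is the only background behind the peaks. The lists give no read counts, so the depth behind each value is unknown. The authors' conservative list of the series held 551 peaks, their other thresholded list 605, and the lists of replicate 1 and replicate 2 held 215 and 253.

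snoRNAs guide chemical modification of ribosomal and spliceosomal RNA. C/D box snoRNAs direct methylation of the ribose, and H/ACA box snoRNAs direct the change of uridine to pseudouridine. In animals many snoRNAs are cut out of the introns of host transcripts, while others are transcribed from promoters of their own. RNA polymerase III reads tRNA genes through an A box and a B box that lie within the transcribed sequence, and a run of T ends its transcripts. Some C. elegans snoRNA genes are known to have a tRNA-like promoter of this kind just upstream.

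The sequence before many of the bound snoRNA genes contained a tRNA-like A box and B box, and the first set shows it at 3 genes outside introns and 3 intronic genes. Each line runs from 100 bases before to 10 bases after the annotated gene start, on the strand of the gene, 111 bases in all, and was read from the RefSeq genome of build WBcel235, which has the same coordinates as ce11. Capitals mark a match to the A box (letters searched TGGCNNAGT) and then to the B box (GTTCGANTC), each with at most 1 mismatch and with 20 to 70 bases between them. These letters and limits were chosen after the sequences of the bound genes had been seen. The windows are T03F7.8 at chrV:11314158-11314268 (plus strand), W03C9.9 at chrII:11960798-11960908 (plus strand), F32E10.10 at chrIV:7574022-7574132 (plus strand), F11A10.9 at chrIV:12086609-12086719 (plus strand), R166.7 at chrII:10545319-10545429 (minus strand) and Y43F8C.22 at chrV:19643177-19643287 (minus strand).
T03F7.8: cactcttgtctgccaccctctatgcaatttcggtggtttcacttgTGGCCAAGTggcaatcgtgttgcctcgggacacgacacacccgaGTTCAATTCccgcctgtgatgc
W03C9.9: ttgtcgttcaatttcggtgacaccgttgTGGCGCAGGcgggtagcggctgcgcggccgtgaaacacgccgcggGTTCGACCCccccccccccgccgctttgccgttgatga
F32E10.10: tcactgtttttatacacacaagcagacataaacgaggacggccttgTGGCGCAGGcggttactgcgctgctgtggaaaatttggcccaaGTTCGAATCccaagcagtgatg
F11A10.9: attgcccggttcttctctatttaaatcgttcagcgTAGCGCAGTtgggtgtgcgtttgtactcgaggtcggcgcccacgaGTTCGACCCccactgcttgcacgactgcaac
R166.7: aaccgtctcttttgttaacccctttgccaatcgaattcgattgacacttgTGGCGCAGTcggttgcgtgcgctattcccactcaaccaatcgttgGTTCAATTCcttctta
Y43F8C.22: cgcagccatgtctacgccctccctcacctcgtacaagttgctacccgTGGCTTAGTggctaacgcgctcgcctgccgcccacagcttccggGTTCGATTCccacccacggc
The second set has the same boxes but no peak in the conservative list, at T10B9.11 at chrII:9774824-9774934 (minus strand) and Y59E1B.14 at chrX:1891409-1891519 (plus strand).
T10B9.11: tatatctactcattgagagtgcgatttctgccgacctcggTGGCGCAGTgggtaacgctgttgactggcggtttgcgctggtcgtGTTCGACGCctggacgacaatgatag
Y59E1B.14: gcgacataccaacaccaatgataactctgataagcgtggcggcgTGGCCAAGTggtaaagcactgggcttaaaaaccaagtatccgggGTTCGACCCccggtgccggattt
The third set has a peak but no pair at the limit of 1 mismatch per box, at T06C12.16 at chrV:15873916-15874026 (minus strand) and ZK994.7 at chrV:8500479-8500589 (plus strand). T06C12.16 does hold an A box without a mismatch (tggcctagt), followed by gttcgatgt, which has 2 mismatches to the B box. It therefore has the pair in the wider search described below.
T06C12.16: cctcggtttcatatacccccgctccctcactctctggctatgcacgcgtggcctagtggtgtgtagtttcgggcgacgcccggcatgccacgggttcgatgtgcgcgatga
ZK994.7: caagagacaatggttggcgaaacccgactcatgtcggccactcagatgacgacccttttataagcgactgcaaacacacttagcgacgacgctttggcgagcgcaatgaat
The snoRNA itself is shown for C51F7.3, an intronic gene with the third highest signal among the peaks at snoRNA genes, at chrV:12303708-12303783 (plus strand), with its C box and last D box in capitals.
C51F7.3: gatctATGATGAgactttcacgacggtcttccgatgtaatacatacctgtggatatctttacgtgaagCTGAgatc

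ZTF-6 peaks lay at 45 of the 346 snoRNA genes (13.0%, exact 95% binomial interval 9.65 to 17.01) in the conservative list, beside 1.35% of all nuclear genes. Intronic genes and genes outside introns had a peak at similar rates, 20 of 150 intronic genes (13.3%, 8.34 to 19.8) and 25 of 196 genes outside introns (12.8%, 8.43 to 18.3). For comparison, 99 of 612 tRNA genes had one (16.2%, 13.3 to 19.3) and 268 of 19973 protein-coding genes (1.34%, 1.19 to 1.51). All intervals here cover counting error only, and no difference between groups of genes, here or further on, was tested. The 45 genes were served by 44 peaks, 7.99% of the list, because C51F7.3 and C51F7.4 shared a peak, as did C27H5.9 and C27H5.10, and Y43F8C.22 had 2 peaks.

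Other small RNA genes inside same-strand introns gave a wide range of shares in the same list. Of 1026 genes annotated as ncRNA there, 18 had a peak (1.75%, 1.04 to 2.76). Of 69 microRNA genes there 0 had one, which allows a share of up to 4.35% (exact upper limit 5.21%). Of 165 intronic tRNA genes 22 had a peak (13.3%, 8.55 to 19.5), and of 36 intronic snRNA genes 8 (22.2%, 10.1 to 39.2).

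The other lists gave a similar count or smaller ones. In the other thresholded list of the series 43 snoRNA genes had a peak (12.4%, 9.14 to 16.4; all nuclear genes 1.46%), of which 39 also had one in the conservative list. Replicate 1 alone gave 16 genes (4.62%, 2.67 to 7.401; all nuclear genes 0.497%), and replicate 2 alone gave 32 (9.25%, 6.41 to 12.8; all nuclear genes 0.693%). Of the 45 genes, 13 had a peak in both replicate lists and 16 in neither. The replicate lists come from the same libraries as the conservative list and are not independent of it.

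**Figure D1:**
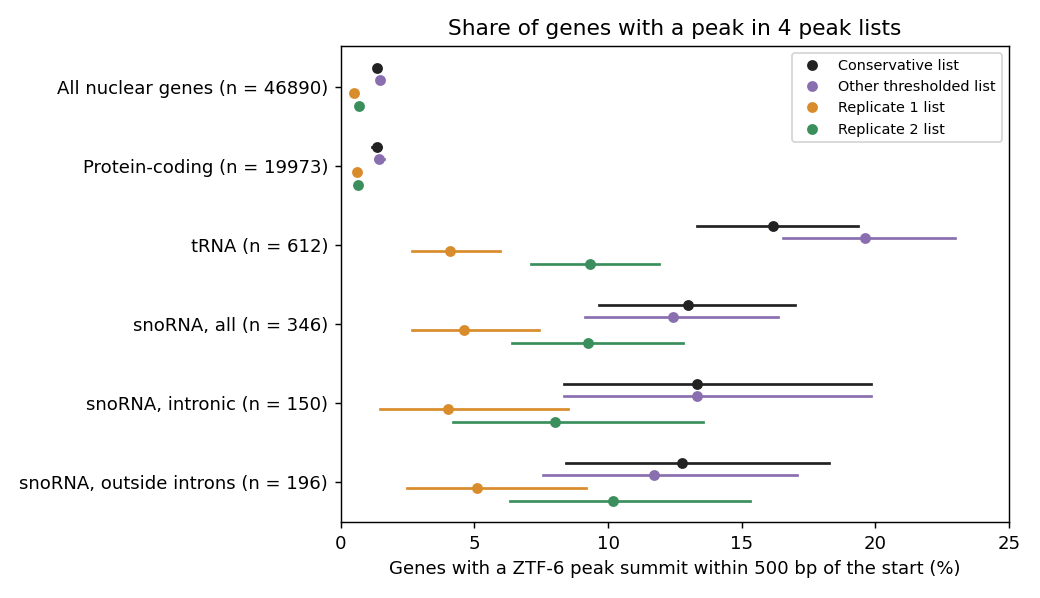
Share of genes with a ZTF-6 summit within 500 bp of the start (horizontal axis, %) for 6 gene groups in the 4 thresholded peak lists; points are shares and lines exact 95% binomial intervals over genes. The intronic and outside snoRNA points lie close together in each list, at 13.3% and 12.8% in the conservative list, far from the 1.35% of all nuclear genes.

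Summits gathered just upstream of the snoRNA genes. The median summit lay 40 bp upstream of the gene start (quartiles 64 and 13 bp upstream), and at 34 of the 45 genes (75.6%) it lay within 100 bp, at 29 of them upstream. At protein-coding genes with a peak the median was 198 bp upstream and 22.8% of summits lay within 100 bp. At tRNA genes, whose boxes lie inside the gene, the median was 19 bp downstream of the start and 86.9% lay within 100 bp. Both classes showed this position: the median was 43.5 bp upstream at the 20 intronic genes, with 14 within 100 bp, and 36 bp upstream at the 25 outside, with 20 within 100 bp. For 35 of the 45 genes the snoRNA gene start was the nearest annotated gene start to the summit, and for 29 no protein-coding transcript started within 500 bp of the summit.

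**Figure D2:**
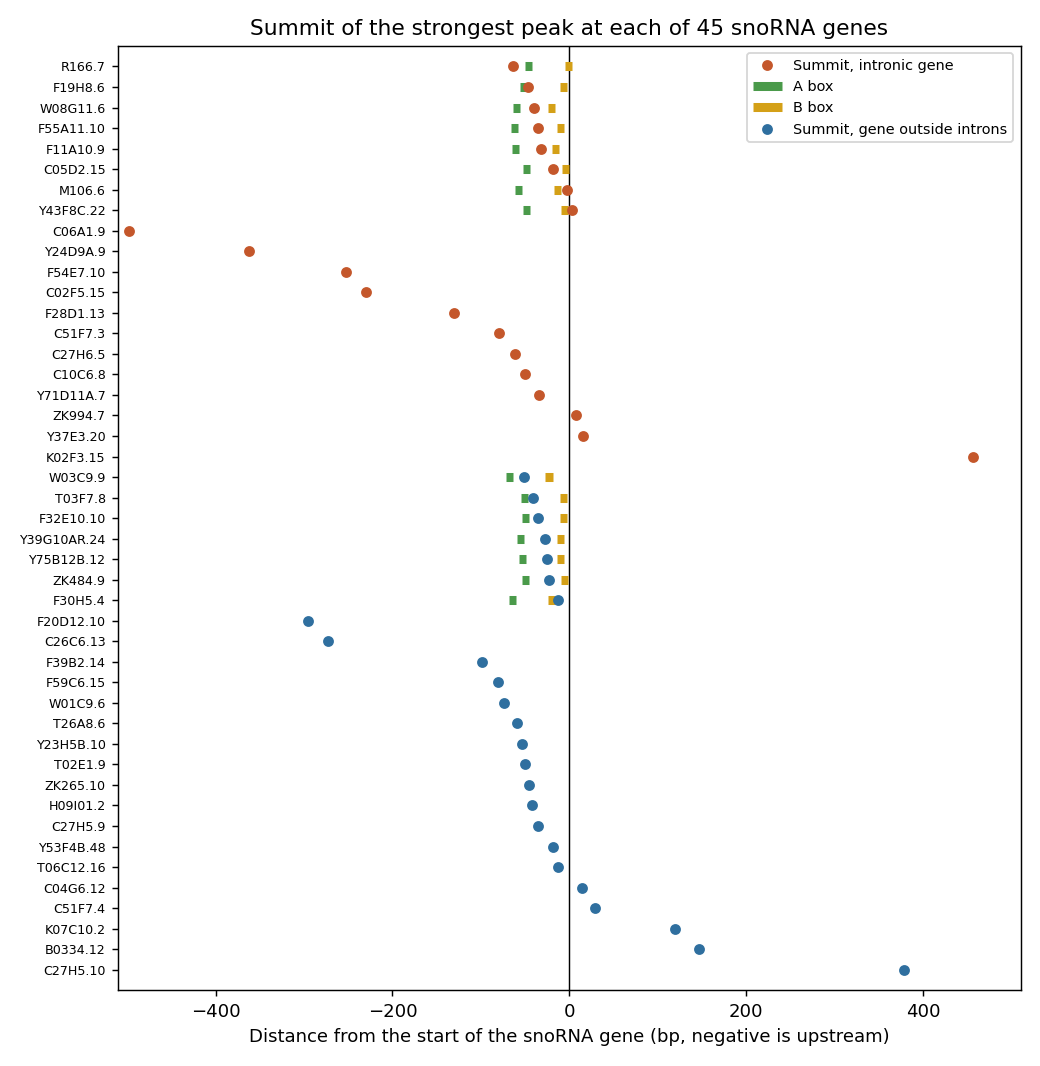
Summit of the strongest peak at each of the 45 snoRNA genes, by distance from the gene start in bp (horizontal axis, negative is upstream), with the positions of the A box and the B box where the pair was found. Summits lie within 100 bp of the start at 34 genes, and at each of the 15 genes with the pair they lie between 64 bp upstream and 3 bp downstream.

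Among genes outside introns, F59C6.15 had the highest signal at any snoRNA gene. The authors' signal of its peak (chromosome I, 10517166 to 10517303) was 261.8 in the conservative list, 127.0 in replicate 1 and 137.0 in replicate 2, and the summit lay 81 bp upstream. By signal it was number 8 of the 551 peaks of the list. The 3 further copies of this gene of at least 90% identity (F25H2.15, T19C4.11 and Y67A10A.14) had no peak.
T03F7.8 (chromosome V, 11314258 to 11314332), which carries the pair shown above, had a signal of 164.1, with 62.6 in replicate 1 and 99.9 in replicate 2 and the summit 41 bp upstream. W03C9.9 (chromosome II, 11960898 to 11960959), also with the pair, had 148.1, with 73.3 and 69.6 and the summit 51 bp upstream. The signals of these 2 genes exceeded those of the other 13 genes with the pair.
B0334.12 differed in position, with its summit 146 bp downstream of the gene start, beyond the end of this 70 bp gene and near twk-5, a potassium channel gene; its signal was 142.2, with 56.4 and 86.1 in the replicates. T06C12.16 had 134.9 (60.03 and 69.4), Y23H5B.10 had 131.5 (60.6 and 69.5), ZK265.10 had 128.2 (61.0 and 60.7) and T02E1.9 had 127.0 (61.6 and 58.8). In these 4 the summits lay between 13 and 54 bp upstream, and each of them, like the 4 genes named before them, had a peak in both replicate lists.
Further genes outside introns among the 20 strongest were F32E10.10 (115.5), F30H5.4 (113.8) and Y39G10AR.24 (106.7), all with the pair. At F30H5.4 the signal was 35.8 in replicate 1 and 81.4 in replicate 2.

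Of the 20 intronic genes with a peak, 7 had a transcript start of the host within 500 bp of the summit, so gene and host promoter cannot be told apart there. The strongest was C06A1.9 in cdc-48.1, an AAA ATPase gene, with a signal of 246.9 (129.7 and 103.6 in replicates 1 and 2). Its summit lay 498 bp upstream of the snoRNA gene and 155 bp from a host start, which makes it the member nearest to the 500 bp limit. The summits of replicates 1 and 2 there lay 508 and 521 bp from the snoRNA gene start, so it counted in neither replicate list although both held the peak. The others were F55A11.10 in F55A11.6 (123.4), K02F3.15 in zip-2, a bZIP transcription factor gene (107.5), Y37E3.20 in pcyt-2.1 (107.5) and 3 genes in ribosomal protein genes.
Y24D9A.9 in rpl-7A, a large-subunit ribosomal protein gene, had 138.8 (80.2 and 62.9), with the summit 362 bp upstream of the snoRNA gene and 80 bp from a host start. F54E7.10 in rps-12, a small-subunit gene, had 131.6 (65.7 and 67.3), at 252 and 172 bp. F28D1.13 in rps-23 had 76.3 (33.4 and 37.3), at 130 and 22 bp. In all 3 the summit was nearer to the host start than to the snoRNA gene. Ribosomal protein genes hosted 19 snoRNA genes, of which these 3 had a peak (15.8%, 3.38 to 39.6) and the other 16 had none. The share was similar in other hosts, where 17 of 131 intronic snoRNA genes had a peak (13.0%, 7.74 to 19.96). F39B2.14, a gene outside introns, had a peak of 78.1 that also lay within 500 bp of a start of rps-26.

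At the other 13 intronic genes with a peak the nearest host start lay 846 to 16068 bp from the summit (median 1543), and 12 of these 13 summits lay within 100 bp of the snoRNA gene start. M106.6 lies in mix-1, a gene for a condensin subunit, 16068 bp from the host start as measured from the summit; its summit was 3 bp upstream of the snoRNA gene, and its signal was 88.1 (34.0 and 46.9). C51F7.3 in frm-7 shared a peak of 183.8 (73.4 and 112.1) with its neighbour C51F7.4, the summit lying 80 bp upstream of the first and 29 bp downstream of the start of the second. ZK994.7 in pxn-1, a peroxidasin gene, had 151.3 (79.8 and 73.6), with the summit 8 bp inside the gene and 5698 bp from the host start. Both of these peaks were in both replicate lists.
The others named here had weaker peaks than C51F7.3 and ZK994.7. C10C6.8 in catp-8 had 98.7, F11A10.9 in rbm-34 95.9, Y43F8C.22 in Y43F8C.7 94.6, Y71D11A.7 in acsd-1 93.7, F19H8.6 in mltn-9 91.9 and C27H6.5 in unc-41, a gene of synaptic vesicle endocytosis, 86.6. W08G11.6 in W08G11.3 had 82.9, R166.7 in mnk-1, a protein kinase gene, 82.7 and C05D2.15 in madf-11 74.5.
Intronic genes with and without a peak lay at similar distances from the nearest host start. The median distance was 1248 bp with a peak (80 to 16071) and 1187 bp without (69 to 18252). Of the 16 hosts with more than 1 snoRNA gene, none had a peak at more than 1 of them. Of the 36 snoRNA genes in these hosts 3 had a peak, beside 20 of all 150 intronic genes (13.3%). The 4 snoRNA genes in nol-56, itself a gene for a C/D box snoRNP protein, had none, and 4 genes are too few to show a lower share.

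Both replicates carried signal at nearly all of these sites. In the ranked lists, which hold 44606 peaks for replicate 1 and 51197 for replicate 2 without a threshold, the median signal at the 45 genes was 45.8 in replicate 1 (27.3 to 129.7) and 57.6 in replicate 2 (33.4 to 137.0, 44 genes with a value). These medians fell at percentiles 99.3 and 99.6 of their own lists. The 45 genes were chosen by peaks called reproducible over both replicates, so high values in both follow from that choice. T26A8.6 was the exception: its peak had 77.3 in the conservative list and 34.0 in replicate 1, and no ranked peak of replicate 2 overlapped it. It has a near-identical copy, T08B6.64 (95.6% identity), without a peak. Over the 42 distinct peaks with both values, the rank correlation (Spearman's rho) of the signals was 0.556 and Pearson's r on the log2 scale 0.619, as a description over sites that share the same 2 libraries. Signal scales were not shown to be comparable between the lists, so the 32 genes with a higher value in replicate 2 are given as a count. The authors gave a q-value of at most 0.05 to the peaks of 26 of the 45 genes (57.8%), beside 40.1% of the peaks in the whole list.

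**Figure D3:**
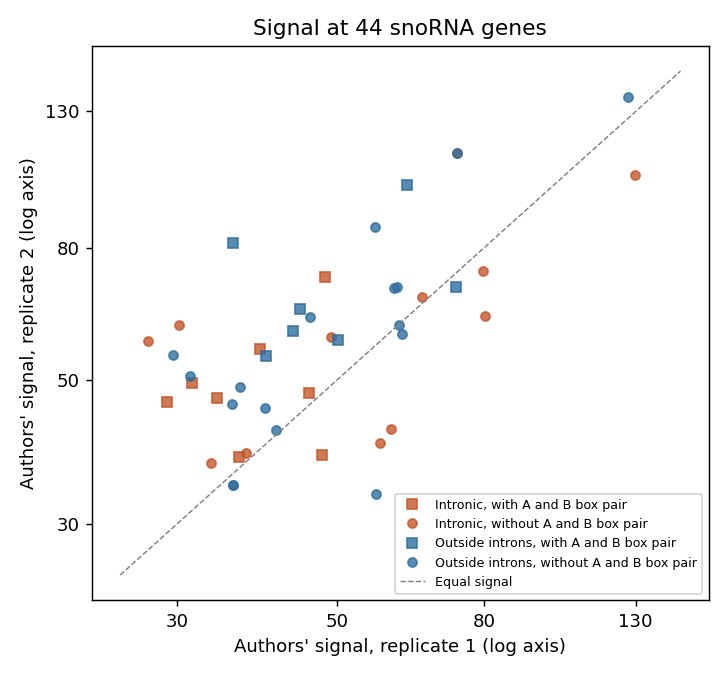
The authors' signal in replicate 1 against replicate 2 (log axes) at the 44 snoRNA genes with a value in both, coloured by class and with squares for genes with the A and B box pair. Most points lie above the line of equal signal (32 genes), and in replicate 1 the intronic genes span 27.3 to 129.7 and the genes outside introns 29.6 to 127.0.

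The tRNA-like pair of boxes was more frequent before snoRNA genes with a peak than before the others. Within 120 bases before to 30 after the gene start, on the strand of the gene, 15 of the 45 genes with a peak had the pair (33.3%, 20 to 49) and 10 of the 301 without (3.32%, 1.604 to 6.02). The same search found the pair at 0.143% of all nuclear gene starts and 0.0951% of protein-coding gene starts. On the opposite strand it was found at 0 of the 346 snoRNA genes. Genes called without the pair can hold weaker matches. With up to 2 mismatches in the B box, 19 of 45 genes with a peak (42.2%) and 21 of 301 without (6.98%) had the pair. On the opposite strand this wider search found it at 6 of 346. Since the letters were chosen from the bound genes, these counts describe the sequences and carry no test. The B box in the looser form GTTCNANNC was chosen with earlier results of these data known. It was present in the 150 bases upstream at 15 of 45 genes with a peak (33.3%) and 20 of 301 without (6.64%, 4.11 to 10.1), beside 2.17% of all nuclear genes. This word is a looser form of the same B box in an overlapping window, so its shares are not separate support for the pair. On the opposite strand it was present at 1 of 45 and 5 of 301.

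The boxes held a fixed place, and the summits fell among them. At the 15 genes with both a pair and a peak the A box began 50 to 72 bases before the gene start (median 57) and the B box 5 to 27 bases before it (median 14), with 31 to 43 bases between them. At 11 of the 15 the summit lay between the start of the A box and the end of the B box, as in T03F7.8 and W03C9.9 above. It lay outside the boxes in R166.7 (64 bp upstream) and Y43F8C.22 (3 bp downstream), also shown above. Of the 34 genes with a summit within 100 bp, 15 had the pair, and of the 11 with a more distant summit 0 had it. With up to 2 mismatches in the A box these counts were 16 of 34 and 2 of 11, and with up to 2 in the B box 19 of 34 and 0 of 11. A run of 4 T in the last 5 bases of the gene or the 20 bases after it was present at 14 of these 15 genes, at all 10 genes with the pair and no peak, and at 151 of the 321 genes without the pair (47.0%). Without the pair, the run was present at 19 of 30 genes with a peak and 132 of 291 without. By length, it was present at 54 of 73 genes of at most 90 bp and 121 of 273 longer ones. Its share over all nuclear genes was not computed. None of the 25 pairs overlapped an annotated tRNA gene or a protein-coding exon, while those at F19H8.6, D1046.6 and Y59E1B.14 overlapped annotated pseudogenes. The pairs at ZK484.9, C05D2.15, D1046.6, K11C4.6, T03F7.8 and F55A11.10 overlapped genes annotated as ncRNA, on the same or the opposite strand.

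Read the other way, 15 of the 25 genes with the pair had a peak (60%, 38.7 to 78.9), and 30 of the 321 without it (9.35%, 6.39 to 13.1). The letters and limits were chosen from the bound genes, which favours a higher share with the pair. The shares and intervals of snoRNA genes by the pair are therefore description and carry no test. By class, 8 of 14 intronic genes with the pair had a peak (57.1%, 28.9 to 82.3) and 7 of 11 outside introns (63.6%, 30.8 to 89.1). Intronic genes without the pair had a peak at 12 of 136 (8.82%, 4.64 to 14.9). The gap in percentage points was narrower in the replicate lists. In replicate 1, 2 of 25 genes with the pair had a peak (8%, 0.984 to 26.03) and 14 of 321 without it (4.36%, 2.40 to 7.21), and the intervals overlapped; none of the 14 intronic genes with the pair had one (exact upper limit 23.2%). In replicate 2 a peak lay at 10 of 25 with the pair (40%, 21.1 to 61.3) and 22 of 321 without it (6.85%, 4.34 to 10.2). Among tRNA genes, 400 of 612 had the pair between 20 bases before and 120 after their start (65.4%), but their share with a peak was 16.3% with the pair (12.8 to 20.2) and 16.04% without it (11.4 to 21.7). Among genes other than snoRNA and tRNA genes, 3 of 41 with a pair before their start had a peak (7.32%, 1.54 to 19.9) and 485 of 45891 without one (1.06%, 0.965 to 1.15).

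**Figure D4:**
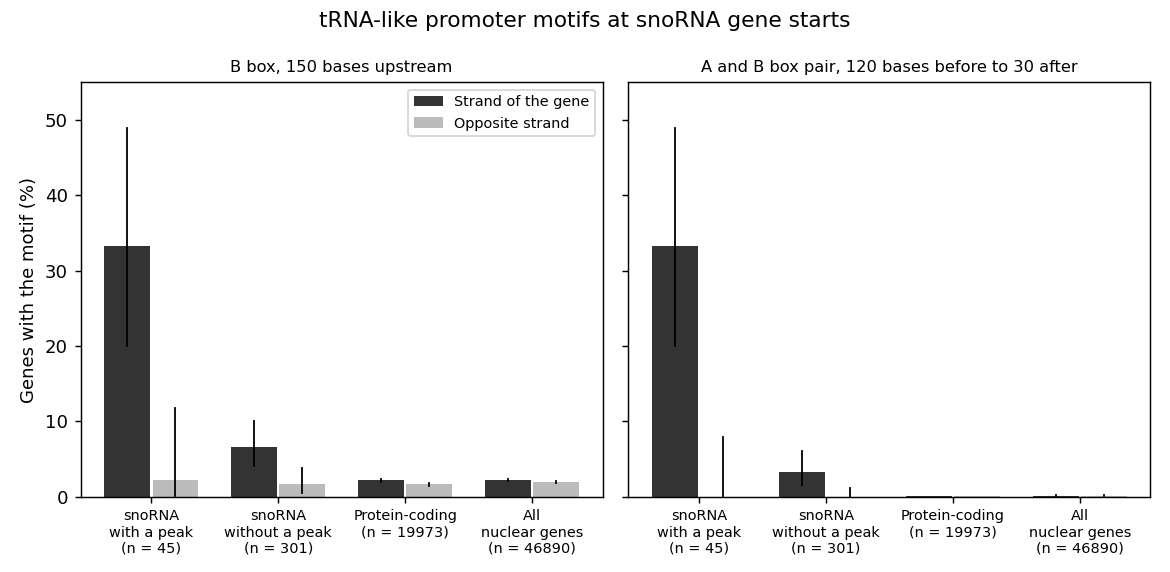
Share of gene starts (vertical axis, %) with the B box GTTCNANNC in the 150 bases upstream (left) and with the A and B box pair from 120 bases before to 30 after the start (right), on the strand of the gene and on the opposite strand; lines are exact 95% binomial intervals. On the strand of the gene both motifs stand at 33.3% of snoRNA genes with a peak, against 6.64% and 3.32% of those without. The letters of the pair were chosen from the bound genes, so these shares carry no test.

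The other words searched showed smaller differences. TATAAA was present on either strand within 150 bases upstream at 9 of 45 genes with a peak (20%, 9.58 to 34.6) and 38 of 301 without (12.6%, 9.09 to 16.9), beside 23.7% of all nuclear genes. TGACCT was present at 0 of 45 and 15 of 301, beside 3.66% of all nuclear genes. Box letters in the genes themselves identified few snoRNAs by type. A C box (ATGATGA or GTGATGA) followed by a D box (CTGA), searched on the strand of the gene, was present in 17 of the 346, 3 with a peak and 14 without, so C/D box and H/ACA box genes could not be separated for most of the set. An ACA 3 bases before the gene end, the mark of H/ACA snoRNAs, was present in 58, of which 56 also had an H box (ANANNA). The H box word has few fixed letters and was accepted anywhere before the ACA. Its share in genes without the ACA was not computed, so it adds little to the type. The ACA was present in 9 of 20 intronic genes with a peak (45%, 23.1 to 68.5) and 36 of 130 without (27.7%, 20.2 to 36.2), and in 2 of 25 and 11 of 171 outside introns.

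Short snoRNA genes had a peak more often than long ones. Of the 73 genes of at most 90 bp, a limit chosen after the values had been seen, 21 had a peak (28.8%, 18.8 to 40.6), and of the 273 longer genes 24 (8.79%, 5.71 to 12.8). Outside introns the counts were 15 of 42 (35.7%, 21.6 to 52.0) and 10 of 154 (6.49%, 3.16 to 11.6). Inside introns they were 6 of 31 (19.4%, 7.45 to 37.5) and 14 of 119 (11.8%, 6.58 to 18.95). Length and the pair went together in part. The pair was present at 13 of the 73 short genes and 12 of the 273 longer ones. With the pair, 8 of 13 short genes (61.5%) and 7 of 12 longer genes (58.3%) had a peak. Without it, the counts were 13 of 60 (21.7%) and 17 of 261 (6.51%).

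Many snoRNA genes without a peak in the conservative list still had weak signal in the list behind it, which ranks 74251 peaks without a threshold. Of the 301, 212 had a ranked peak within 500 bp, with a median signal of 34.6 at percentile 80.4 of that list. Among all nuclear genes without a peak, 46.1% had one, at a median signal of 28.1 and percentile 63.6. Of the 10 genes with the pair and no peak, 7 had a ranked peak in the series list. The signals of these 7 stood higher than the median of 34.6, from 40.9 to 61.1 (median 47.2), at percentiles from 90.2 to 98.6. Y59E1B.14, shown above, was at percentile 17.1 in replicate 2 and had no ranked peak in replicate 1 or the series. C41C4.11 had none in the series but percentile 99.3 in replicate 2.

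**Figure D5:**
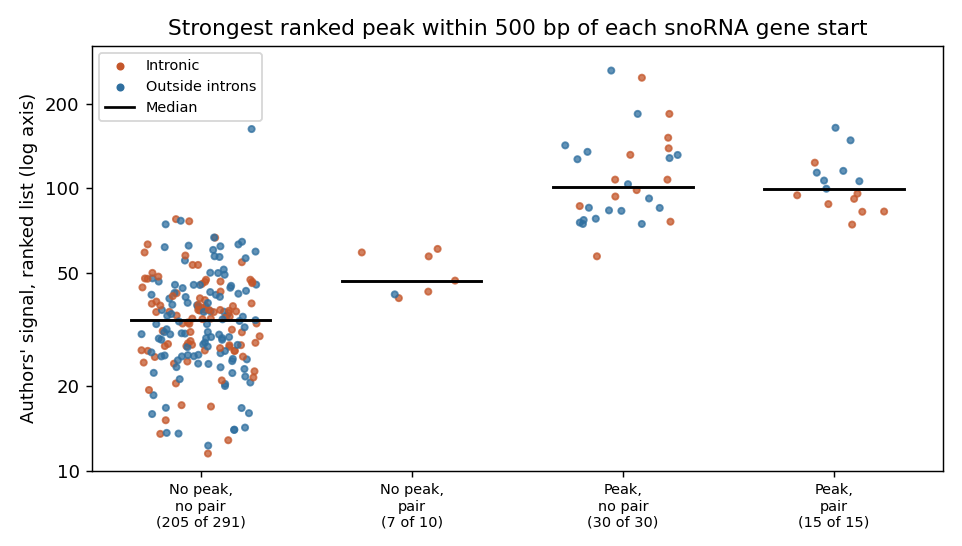
The authors' signal (vertical log axis) of the strongest ranked peak within 500 bp of each snoRNA gene start, for genes without and with a peak in the conservative list and without and with the A and B box pair; bars are medians, and the numbers below give genes with a ranked peak of all genes in the group. The 7 genes with a pair and no peak lie between 40.9 and 61.1, below the 74.5 of the weakest gene with a pair and a peak. The conservative list was drawn from these same ranked peaks, so lower signal in genes without a peak largely follows from the grouping.

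Beyond the conservative list, 9 snoRNA genes had a peak in another thresholded list or at the authors' threshold in the ranked list. WBGene00220185, outside introns, had a ranked peak with signal 162.4 and an irreproducible discovery rate of 0.000215 that is missing from the conservative list, where its signal would stand between those of T03F7.8 and ZK994.7. T06D8.11, M163.14, C41C4.11 and F38E11.14 had a peak in the other thresholded list, and C41C4.11, F38E11.14, T08B2.13, ZK643.9, C46C2.8 and M7.15 in the list of replicate 2. At the 500 bp limit, the members just inside were C06A1.9 (498 bp), K02F3.15 (456 bp) and C27H5.10 (378 bp), and those just outside were C01B10.48 (506 bp), K11H12.13 (571 bp) and F54E7.11 (619 bp). The last 2 lie in rpl-15 and rps-12.

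The peaks were spread over the autosomes. Chromosome V had 10 of 55 snoRNA genes with a peak (18.2%, beside 1.07% of all nuclear genes there) and chromosome II 12 of 71 (16.9% beside 2.06%). Chromosome IV had 8 of 59 (13.6% beside 0.528%), chromosome I 9 of 74 (12.2% beside 2.19%) and chromosome III 6 of 54 (11.11% beside 2.80%). The low share over all genes of chromosome IV rests on a large number of annotated genes. There 104 of 19704 had a peak, beside 108 of 3859 on chromosome III. On chromosome X 0 of 33 snoRNA genes had a peak, which allows a share of up to 9.09% (exact upper limit 10.6%), beside 2.26% of all nuclear genes on that chromosome. Of these 33 genes, 4 were intronic, 3 were at most 90 bp long and 1, Y59E1B.14, had the pair, and 22 had a ranked peak, at a median percentile of 67.9. Among them, M163.14 had a peak in the other thresholded list.

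Of 11 genes for snoRNP proteins and their assembly factors, 0 had a summit of the conservative list within 500 bp of a transcript start. The share of all protein-coding genes was 1.34%, scored by the annotated gene start alone, so the measures differ. In any case 11 genes are too few to show a lower share. They were fib-1 (the methyltransferase fibrillarin), nol-56, nol-58 and snu-13 of the C/D box particle, dkc-1 (the pseudouridine synthase), nola-3, garr-1 and Y48A6B.3 of the H/ACA particle, dao-5, ruvb-1 and ruvb-2. The nearest summit was 3159 bp away, at dao-5. Of the 7 genes of the snRNA-activating complex, which recruits polymerases to small nuclear RNA genes, 1 had a peak: snpc-3.4, with a signal of 68.7 and the summit 81 bp from a start. It was in neither replicate list.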

How the data were processed

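Per the labels, ChIP-seq was done on 2 biological replicates of 1 group, with positions on ce11. The authors deposited, for each replicate and for the series, a ranked peak list and a thresholded list. The deposited signal column holds each peak's signal over a control alignment, in a scale that no label or header gives. The deposited score is a whole number of up to 1000 scaled from the irreproducible discovery rate (IDR). The authors' q-values and IDR are stored as −log10 and were converted back. Aligner and caller were not given in the sources used here. In the files, all peaks of the conservative list stood at IDR 0.01 or lower in the ranked list that holds them. Summits were the peak start plus the deposited offset.

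The annotation was Ensembl release 115, and sequence came from the RefSeq copy of that build. Shares carry exact 95% (Clopper-Pearson) intervals (scipy 1.17.1). Replicate signal is the strongest ranked peak overlapping the site by at least 1 bp. Near-identical copies were found with BLAST 2.17.0, at 90% identity over 80% of the longer gene. No test was made: there is 1 group, and members share peaks and hosts. The scoring and motif searches were tested on simulated data. The text names the 20 members with the highest signal, all in both replicate lists, all intronic ones but 1, which is not reported here by name, and those near a ribosomal protein gene start; other genes were named after their values were seen. The members, lists and words were chosen with earlier results of these data known, and the A and B box pair, the mismatch limits and the length limit after the sequences and values had been seen.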

Additional observations from a re-analysis of the deposited data

How the results depend on the processing

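Across the 43 alternatives run for the shares of all, intronic and outside genes, 34 stayed within 1.5 times the main share. With replicate 1 or replicate 2 left out, the share ranged from 4.62% to 9.25% for all members, from 4% to 8% for intronic genes and from 5.10% to 10.2% for genes outside introns. At an IDR of at most 0.001 the shares were 6.07%, 5.33% and 6.63% (all nuclear genes 0.435%). Without peaks at protein-coding transcript starts they were 8.38% for all members and 8% for intronic genes (all nuclear genes 0.552%). These lists hold fewer peaks (215, 253, 163 and 317), and the cause of the differences was not tested. Counting all ranked peaks at an IDR of at most 0.01 or leaving out near-identical copies, both chosen after seeing the data, gave 13.3% and 13.0%. Of genes with the pair, 37.5% had a peak (3 of 8) with no mismatch in the A box, and 47.5% and 52.9% with 2 mismatches in the B box or in the A box. No paired analysis was possible because there is 1 group. Sequencing depth is unknown, so weak sites may have been missed.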
